A study of Mus musculus with 4 samples.

Results

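Tyrobp, Fcer1g, Ctss and Aif1 are 4 genes commonly used as marks of microglia, the resident macrophages of the brain. Every feature of the array table whose platform gene symbol is one of these 4 names was taken, which gave 7 of 16281 features: 2 each for Tyrobp, Ctss and Aif1, and 1 for Fcer1g. All 7 had a value on all 4 arrays. The genes were chosen by name with the log ratios of these same arrays already known, so their ratios are given as a description and carry no test.

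Tyrobp encodes DAP12 and Fcer1g encodes the Fc receptor gamma chain. Both are small transmembrane adaptors that pair with receptors lacking a signalling tail, Trem2 for the former and activating Fc receptors for the latter, and that recruit the kinase Syk through a paired tyrosine motif called ITAM. Ctss encodes cathepsin S, a lysosomal cysteine protease that trims the invariant chain (Cd74) from MHC class II molecules. Aif1 encodes Iba1, a calcium-binding protein that bundles actin, and antibodies to it are the usual stain for microglia.

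Total RNA of the dentate gyrus, the part of the hippocampus that houses the granule cells, was taken from male C57BL/6J mice described as young and hybridised to 4 two-colour microarrays, with a single array at 1, 2, 4 or 6 h. On each array, RNA of mice given saline (5 µL per g body weight) carried Cy3 and RNA of mice given MK-801 (300 µg per g body weight) carried Cy5. MK-801 (dizocilpine) blocks the channel of the NMDA-type glutamate receptor. The dose is printed as labelled and is far above those commonly given to mice. The times run from a last shock of the MK-801 mice, yet the labels call the animals of either channel controls, and it stays unclear if the injected animals received shocks. No label gives the number of mice pooled, no time was repeated and no dyes were swapped.

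Each deposited number is a log ratio between channels, read here as log2 and centred on the median of its array. The log base is not stated; with natural logarithms every log2 size below would be larger by a constant factor. The direction is not stated either, so a positive ratio may mean more RNA in the MK-801 channel or more in the saline channel, and all statements below follow the sign of the deposited table. An exact 0, which filled 24.9% to 37.4% of an array, was taken as no value. The 1 h array stood apart: over the 8777 features with 4 values its ratios correlated at r = -0.06 to -0.07 with the later arrays, whereas the later arrays correlated with each other at 0.64 to 0.80 (Pearson, across features, which are not replicates and share their array). Leaving out features at or below -1.5 on any array, which kept 8735, these ranges were -0.13 to -0.15 and 0.46 to 0.70. In such tissue RNA, fewer cells of a type and less RNA per cell cannot be told apart.

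Tyrobp had positive ratios in both of its features on every array. In order of time, feature 3461 read 0.52, 0.09, 0.32 and 0.51, and feature 13789 read 0.59, 0.15, 0.38 and 0.40. Both were lowest at 2 h and higher again at 4 h, and feature 3461 was back at about its 1 h ratio by 6 h. Their means over the 4 arrays were 0.36 ± 0.20 and 0.38 ± 0.18 (SD, n = 4 arrays of different times), which as linear ratios are 1.28 and 1.30 if the logarithm is to base 2. Without the 1 h array the means were 0.31 for each feature. Among all features with a value, Tyrobp feature 3461 stood at percentiles 91.5, 65.2, 89.6 and 97.5 on the successive arrays and feature 13789 at 93.7, 73.6, 92.4 and 94.9. The dip at 2 h thus brought both below the upper quartile of the array's distribution, though still above its median. In GRCm38.p6 Tyrobp lies at chr7:30413782-30417582, Fcer1g at chr1:171229572-171234349, Ctss at chr3:95526786-95556405 and Aif1 at chr17:35170986-35176083; all are protein-coding, and which exons the features cover was not analysed here.

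Fcer1g was positive on every array and had the smallest spread of the 7 features. Its successive ratios were 0.14, 0.17, 0.29 and 0.31, with a mean of 0.23 ± 0.09 (SD, n = 4 arrays). The later pair of values lay above the earlier pair, without the 2 h dip of Tyrobp. Its percentile on the array was 66.5, 75.7, 87.9 and 90.8 at the successive times. Without the 1 h array its mean was 0.26. Only 1 feature represents the gene, so no second reading exists on these arrays.

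**Figure D1:**
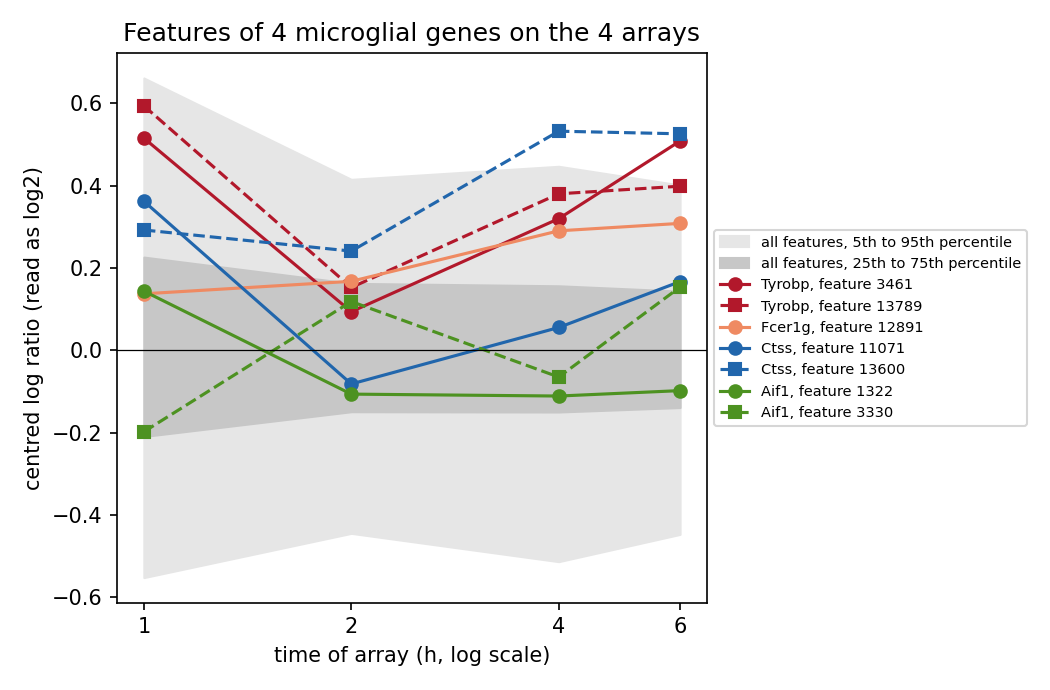
Centred log ratio (read as log2, vertical axis) of the 7 features of Tyrobp, Fcer1g, Ctss and Aif1 on the arrays of 1, 2, 4 and 6 h (horizontal axis, log scale), 1 point per feature and array; grey bands give the 25th to 75th and the 5th to 95th percentiles of all features with a value. Both Tyrobp features run together and dip at 2 h, Ctss feature 13600 reaches 0.53 at 4 h, and the Aif1 features stay between -0.20 and 0.15.

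Ctss gave different readings in its features. Feature 13600 was above 0 throughout, with successive ratios of 0.29, 0.24, 0.53 and 0.53, and its mean of 0.40 ± 0.15 (SD, n = 4 arrays) was the highest of the 7. Feature 11071 read 0.36, -0.08, 0.06 and 0.17, with a mean of 0.13 ± 0.19. At 1 h the features were alike, and from 2 h on feature 13600 lay well above feature 11071. Without the 1 h array the mean was 0.43 for feature 13600 and 0.05 for feature 11071. Feature 13600 stood at percentile 96.7 at 4 h and 97.8 at 6 h, and feature 11071 at 60.2 and 77.7. Both are annotated to the same gene through different sequence records, and which of them reads cathepsin S transcripts more faithfully was not tested.

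Aif1 had ratios near 0 and of mixed sign. Feature 1322 read 0.14 at 1 h and then -0.11, -0.11 and -0.10 at 2, 4 and 6 h. Feature 3330 read -0.20, 0.12, -0.07 and 0.15. The features thus had opposite signs at 1, 2 and 6 h and were both slightly negative at 4 h. Their means were -0.04 ± 0.12 and 0.0022 ± 0.16 (SD, n = 4 arrays). All 8 Aif1 readings lay between percentiles 26.0 and 76.2 of their arrays.

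The differences between features of 1 gene can be read against all genes with several features, the only repeat within an array. Over 1607 to 2151 such pairs per array the median absolute difference was 0.29, 0.20, 0.18 and 0.15 on the successive arrays, and 35.7% to 45.2% of pairs had opposite signs. The Tyrobp features differed by 0.08, 0.06, 0.06 and 0.11, below the median on every array. The Ctss features differed by 0.07 at 1 h, again below it, but by 0.32, 0.48 and 0.36 at 2, 4 and 6 h, larger than 69.2%, 78.8% and 77.7% of pairs. The Aif1 features differed by 0.34, 0.23, 0.05 and 0.25, above the median except at 4 h. This yardstick covers features of the same hybridisation and leaves out the spread between mice.

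**Figure D2:**
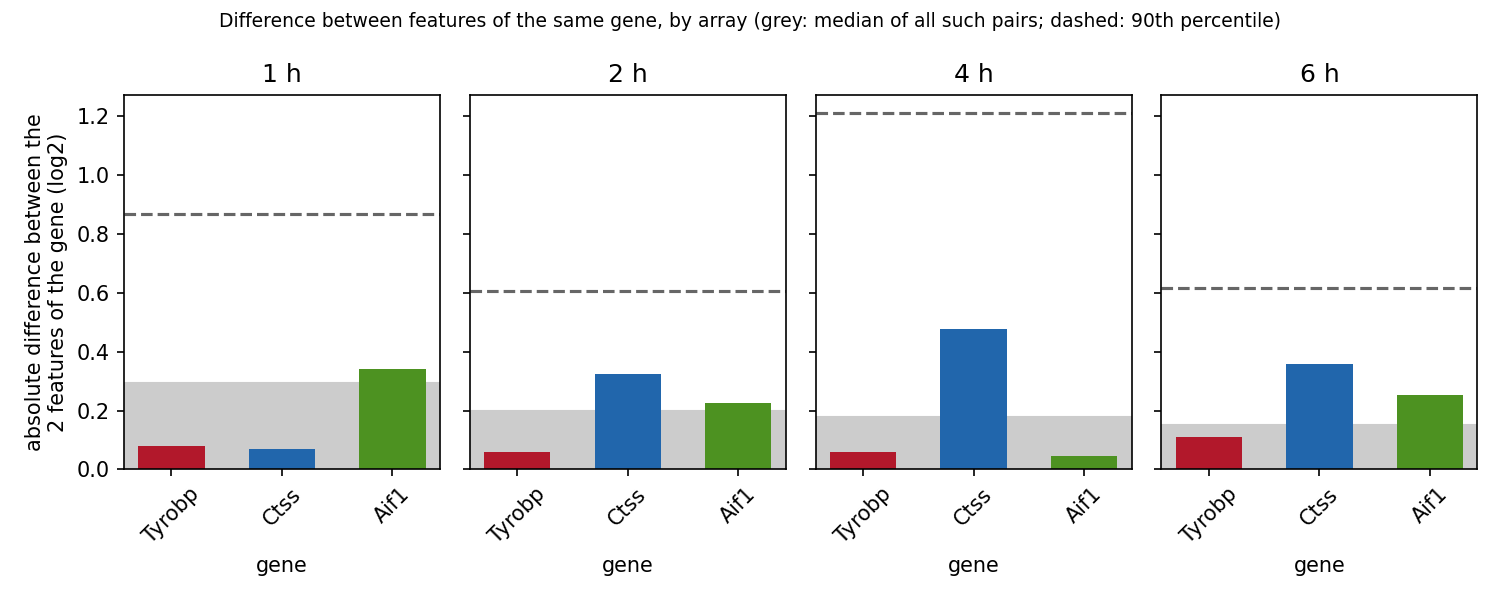
Absolute difference in log ratio (read as log2, vertical axis) between both features of Tyrobp, Ctss and Aif1 (bars) on each array (panels, 1 to 6 h); the grey band ends at the median difference over all pairs of features of 1 gene and the dashed line marks their 90th percentile. Tyrobp bars stay inside the band, the Ctss bar is outside it from 2 h on, and no bar reaches the dashed line.

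By mean ratio the order was Ctss 13600, Tyrobp 13789, Tyrobp 3461, Fcer1g, Ctss 11071, Aif1 3330 and Aif1 1322. The largest step between neighbours in that order was 0.13, from Tyrobp 3461 to Fcer1g, smaller than the SD over arrays of Tyrobp 3461 (0.20) and larger than that of Fcer1g (0.09). The step of 0.10 from Fcer1g to Ctss 11071 was smaller than the SD of the latter (0.19). Each of the other 4 steps was smaller than the SD of both its neighbours, so the order of those neighbours is not settled by these arrays. The SDs leave out that the features share their arrays, and Ctss 11071 lay above Aif1 1322 on every array.

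Counted over the 7 features, 6, 5, 5 and 6 had a ratio above 0 at 1, 2, 4 and 6 h, where by centring 50% of all features with a value did. Their median was 0.29, 0.12, 0.29 and 0.31, beside -0.03, -0.0055, 0.0025 and 0.0036 over the 7684 features with 1 gene symbol and a value on all 4 arrays. A ratio above 0 on all 4 arrays was found for 4 of the 7, both Tyrobp features, Fcer1g and Ctss 13600, beside 11.6% of the 7684 features, and 0 of the 7 were below 0 on all 4, beside 13.9%. A ratio at or above 0.5 on the log2 scale was read at 1 h for both Tyrobp features (beside 9.03% of all features with a value), but after scaling every array to an equal spread both read lower (0.39 and 0.45) and 0 of the 7 reached 0.5 at 1 h (beside 5.06%). At 2 h it was read for 0 of the 7 (beside 2.48%), at 4 h for Ctss 13600 (beside 3.85%), and at 6 h for Ctss 13600 and Tyrobp 3461 (beside 2.68%). None of the 7 was at or below -0.5 at any time, beside 6.37%, 3.88%, 5.21% and 4.09% of all features. Since the genes were chosen with such values in view, these counts describe them and support nothing further.

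Of the 4 genes, 3 had an entry in the RefSeq promoter table (GRCm38.p6). The stretches of Ctss and Fcer1g are shown because every feature of both genes was above 0 at 4 and 6 h, and because PU.1, the ETS-family factor of the macrophage lineage, recognises a purine-rich core. The letters searched were GAGGAA, and TTCCTC for the same letters on the other strand. Other purine-rich runs were not searched. Capitals mark a match, and each line runs 5′ to 3′ along the gene's strand.
Ctss, chr3:95526616-95526795, plus strand, 170 bases before the start and 10 from it: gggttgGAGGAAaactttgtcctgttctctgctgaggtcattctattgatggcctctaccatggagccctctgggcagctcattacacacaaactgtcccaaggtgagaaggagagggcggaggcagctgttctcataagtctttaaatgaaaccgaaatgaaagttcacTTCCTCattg
Fcer1g, chr1:171234340-171234519, minus strand, 170 bases before the start and 10 from it: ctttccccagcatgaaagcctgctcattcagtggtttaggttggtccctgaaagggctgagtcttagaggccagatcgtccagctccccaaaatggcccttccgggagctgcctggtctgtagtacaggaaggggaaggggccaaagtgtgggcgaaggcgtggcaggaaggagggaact
Ctss held 2 matches, beginning 164 bases before the start and at base 1 of the transcript. Fcer1g held 0 in its window, although the shorter run ggaa, a part of GAGGAA, can be read there. GAGGAA or TTCCTC occurred in 17.2% of 32851 promoter windows of the same 180 bases. The table's start for Aif1 lies inside the gene's bounds given above, and its stretch is not shown. It also held a match, TTCCTC, beginning 7 bases before that start. Of the 3 genes with an entry, 2 held a match in their 180-base windows, Ctss and Aif1, the latter with ratios near 0. A match describes letters and is neither a site nor a cause.

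Other genes of these pathways were taken from fixed lists. No feature of any list passed in limma for the mean over the 4 arrays or for the slope on log2 hours (two-sided, Benjamini-Hochberg over 7684 features). Over all features limma called 0 for the mean, with 542 positive (7.05%) and 596 negative (7.76%) at an unadjusted p under 0.05, and 0 for the slope, with 677 positive (8.81%) and 510 negative (6.64%). Without the 1 h array limma called 508 positive (6.61%) and 415 negative (5.4%) features for the mean, and weighting the arrays unequally in limma (array weights) gave 2088. These shares of all features are the background for the counts of every list below. The lowest adjusted p for the mean over all features in limma was 0.191 with 4 arrays and 0.496, 0.708 and 0.746 without the 2, 4 or 6 h array, so the genes given below as called without the 1 h array passed in none of those fits. In all these fits the spread between arrays of different times is the error, and a constant dye bias of a feature cannot be told apart from a treatment difference in the mean.

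Other microglia markers had no common direction over the 4 arrays, though at 6 h more of their features were above 0 than below. Of 48 listed genes, 29 had 34 features with a value on all 4 arrays, with medians of -0.09, 0.03, -0.03 and 0.06 at 1, 2, 4 and 6 h. At these times 13, 20, 15 and 23 of 34 were above 0, beside 3507, 3762, 3882 and 3893 of 7684. At the unadjusted threshold 1 was positive and 1 negative for the mean. Without the 1 h array 1 of 34 was called, positive (beside 6.61% positive and 5.4% negative of the 7684). At the successive times 2, 11, 3 and 6 of the 34 features (5.88%, 32.4%, 8.82% and 17.6%) were as high as the median of the 7 features of the 4 genes, beside 13.5%, 28.9%, 10.7% and 7.93% of the 7684. Csf1r, the receptor for the growth factor microglia depend on, read -0.14, -0.24, -0.14 and -0.18. P2ry12, a purine receptor of resting microglia, was negative on every array in both features, with feature 7320 at -0.36, -0.07, -0.29 and -0.05. Csf1r and P2ry12 thus had the opposite sign to Tyrobp throughout. Over the list, 4 of 34 features were positive on every array, Adgre1 (0.36, 0.04, 0.04 and 0.15) among them, and 5 were negative. Those shares, 11.8% and 14.7%, were near the 11.6% and 13.9% of the 7684. C1qa, a subunit of the complement starter C1q, was also negative on every array (mean -0.21 ± 0.18, SD, n = 4 arrays), while C1qb and C1qc had means of 0.07 ± 0.24 and -0.16 ± 0.18. Gpr34, a lysophospholipid receptor, was the positive call without the 1 h array in feature 7643 (mean 0.21 ± 0.11 over 4 arrays; limma adjusted p = 0.0439 without 1 h), but its feature 2069 read -0.35, 0.0017, -0.31 and -0.01. Cx3cr1, the fractalkine receptor, read 0.39 in 1 feature that had a value at 1 h alone, and -0.02, -0.20 and -0.16 at 2, 4 and 6 h in the other. Cd68, a lysosomal glycoprotein, read -0.47, 0.32 and 0.79 at 1, 2 and 6 h, and Laptm5 read -0.31, 0.20, -0.02 and 0.34. Spi1, which encodes PU.1, had values at 2 and 6 h alone (0.25 and 0.08). The features of Cybb, P2ry13 and Slc2a5 were listed at exact 0 on every array.

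**Figure D3:**
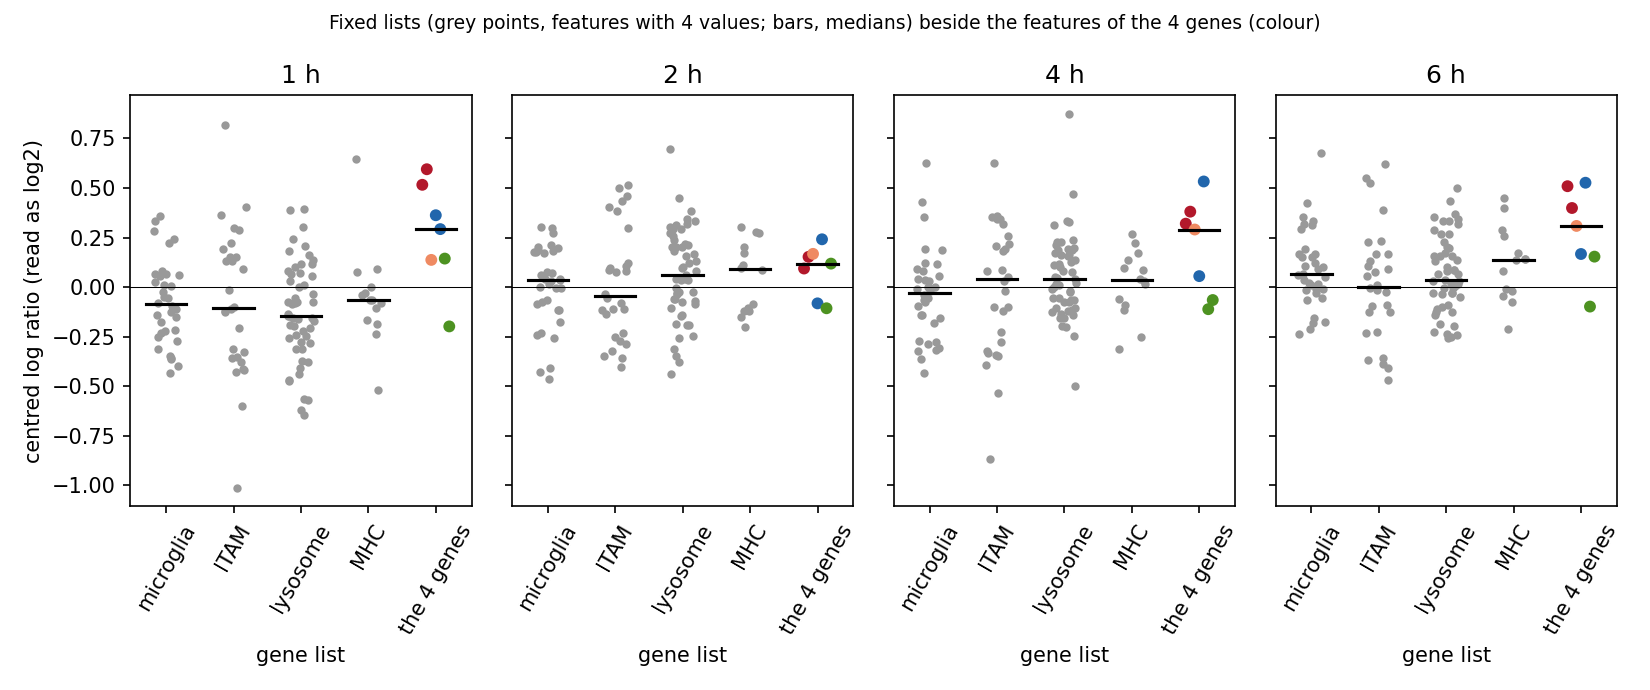
Centred log ratio (read as log2, vertical axis) on each array (panels, 1 to 6 h) of features with a value on all 4 arrays. Grey points, with medians as bars, are the lists of other microglia markers (34 features), ITAM signalling genes (28), lysosomal proteins (53) and MHC genes (14). Coloured points are the 7 features of Tyrobp (red), Fcer1g (orange), Ctss (blue) and Aif1 (green). The list medians lie between -0.14 and 0.14, while the median of the 7 features is 0.12 at 2 h and 0.29 to 0.31 at the other times.

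A list of ITAM adaptors, receptors, kinases and signalling genes also spread to both sides. It is broader than the partners of Tyrobp and Fcer1g. This list had 28 features of 23 genes with a value on all 4 arrays, with medians of -0.11, -0.04, 0.04 and 0.0030, and 12, 13, 15 and 14 of 28 above 0. Unadjusted, 2 were positive and 1 negative for the mean. Without the 1 h array 3 of 28 were called positive and 4 negative (beside 6.61% and 5.4% of the 7684). Fcgr1, the high-affinity IgG receptor that uses the Fcer1g chain, was above 0 throughout, reading 0.13, 0.51, 0.08 and 0.52, while Fcgr3, another partner of that chain, read -0.42, 0.09, -0.02 and 0.17. Trem2, the lipid-sensing partner of Tyrobp, had means of -0.02 ± 0.11 and -0.17 ± 0.14 in the features with 4 values, and another feature read 0.42, -0.32 and 0.16 at 2, 4 and 6 h. Syk, the kinase both adaptors recruit, read -0.38, 0.30, 0.22 and 0.17. The largest means belonged to Clec7a, the beta-glucan receptor (-0.37 ± 0.42), the B-cell linker Blnk (-0.37 ± 0.45), Fcgr1 (0.31 ± 0.24) and Pik3r1, the regulatory subunit of phosphoinositide 3-kinase (0.26 ± 0.43). Of these, Clec7a and Pik3r1 passed without the 1 h array (limma adjusted p = 0.0409 and 0.0262). A second feature of Clec7a had values from 2 h on, all negative. The features of this broader list thus had no common sign, nor had the partners named here, Trem2, Fcgr1, Fcgr3 and Syk.

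Lysosomal proteins, the surroundings of cathepsin S, were mostly below 0 at 1 h and somewhat more often above 0 later. The list had 53 features of 41 genes with a value on all 4 arrays, with medians of -0.14, 0.06, 0.04 and 0.04, and 18, 31, 31 and 33 of 53 above 0, beside 3507, 3762, 3882 and 3893 of 7684. Unadjusted, 3 were positive and 1 negative for the mean. Without the 1 h array 5 of 53 were called positive and 1 negative (beside 6.61% and 5.4% of the 7684). Npc2, which carries cholesterol inside lysosomes, was positive on every array in both features (means 0.24 ± 0.09 and 0.25 ± 0.10) and both were among the positive calls (limma adjusted p = 0.0383 and 0.0426 without 1 h). Ctsh, another cathepsin, read -0.08, 0.33, 0.20 and 0.44 and was called as well (0.0412 without 1 h). Ctsa, a serine carboxypeptidase that stabilises other lysosomal enzymes, was also negative at 1 h and positive later in both features, with feature 15284 at -0.65, 0.45, 0.47 and 0.37 (limma adjusted p = 0.0207 without 1 h) and feature 14302 at -0.22, 0.20, 0.23 and 0.20, which did not pass (0.0585). Ctsb read -0.28, 0.18, 0.23 and 0.01, and the Ctsl feature with 4 values read -0.14, -0.19, -0.01 and -0.03. The Ctsd feature with 4 values had a mean of 0.01 ± 0.26, and its second feature read 1.11 at 1 h alone. Cst3, the secreted cystatin C that inhibits cathepsins, stayed near 0, with 0.01, -0.03, -0.11 and 0.09. Among the features with 4 values the largest means were those of Gla, the lysosomal alpha-galactosidase (0.31 ± 0.37), Npc2, Ctsh (0.22 ± 0.22) and the lysosomal channel gene Mcoln1 in feature 17752 (-0.21 ± 0.18), whose other feature read 0.53, -0.67 and 0.50 at 1, 2 and 4 h.

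Antigen presentation genes had 14 features of 11 genes with 4 values, with medians of -0.06, 0.09, 0.03 and 0.14 and 3, 8, 9 and 9 above 0. Without the 1 h array 1 was called, the class I gene H2-Q7 (-0.03, 0.27, 0.22 and 0.45; limma adjusted p = 0.0422), a gene with near-identical relatives whose transcripts the feature may also bind. The class II transactivator Ciita read 0.64 at 1 h and -0.08 to 0.17 later, H2-D1 had a mean of 0.16 ± 0.10 and the peptide-trimming enzyme Erap1 one of -0.17 ± 0.07 in feature 11792 but 0.14 ± 0.11 in feature 12040. Cd74, the invariant chain on which cathepsin S acts, had no value at 4 or 6 h, and at 1 h its features read -0.36 and 0.31. The class II chains H2-Aa and H2-Ab1 were listed at exact 0 on every array. Other features annotated to class II genes had values. H2-DMa, part of the molecule that loads peptides, read -0.04, 0.10, 0.01 and 0.29. The beta chain H2-Eb1 read 0.06, 0.27 and 0.26 at 1, 2 and 6 h. The feature annotated to the alpha chain H2-Ea read 0.61 and 1.02 at 2 and 6 h alone, and which transcripts it bound in these mice was not tested. H2-Oa read -0.09 and 0.36 at 1 and 6 h alone, and H2-DMb1 read 0.02 at 1 h alone. At 1 h these readings had both signs, and the later ones were above 0. Cd74 in feature 13830 (-0.37) and Ciita (-0.08) were below 0 at 2 h, so the class II pathway had no common sign.

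Relatives of Aif1 and leukocyte actin genes had 23 features of 21 genes with a value on all 4 arrays, with medians of -0.08, 0.02, 0.04 and 0.04 and 9, 13, 13 and 14 above 0. Cotl1, a coactosin-like actin binder, had the lowest mean of the 23 (-0.41 ± 0.29). Arpc1b, a subunit of the Arp2/3 complex that branches actin, had the highest in feature 16020 (0.40 ± 0.39; limma adjusted p = 0.0098 without 1 h), but its feature 10620 was negative on every array. Cap1 (0.23 ± 0.14, feature 12744) and Tmsb4x (0.22 ± 0.25, feature 9149) were positive on every array, while other features of both genes turned negative at 1 time. Complement and phagocytosis genes had 26 features of 23 genes with 4 values, with medians of -0.07, -0.02, -0.0080 and -0.07, and 1 was called without the 1 h array: Abca7, a lipid transporter of phagocytes, at -0.50, -0.51, -0.39 and -0.56 (limma adjusted p = 0.0198; 0.191 with all 4 arrays). Itgb3 (-0.23 ± 0.69), C1qa and Axl (-0.17 ± 0.14) followed it in size of mean.

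Other cells could also carry the 4 genes, and their markers are given beside them. Border macrophage and monocyte markers, 21 features of 17 genes with 4 values, had medians of 0.08, -0.07, -0.04 and -0.07. On every array 3 of 21 were positive (14.3%, beside 11.6% of the 7684) and 4 were negative (19.0%, beside 13.9%). Mrc1, the mannose receptor of border macrophages, read -0.06, 0.40, 0.15 and 0.23, and Lyz2, the myeloid lysozyme, read 0.15, 0.15 and 0.29 at 1, 2 and 4 h. Of these 21, 0 were called positive and 3 negative without the 1 h array (beside 6.61% and 5.4% of the 7684). These were Ms4a7, a macrophage membrane gene, in feature 1134 (0.21, -0.78, -0.19 and -0.50; limma adjusted p = 0.0499) and S100a6, a calcium-binding protein, in features 15 and 10380 (0.0314 and 0.0434), both negative on every array with means of -0.39 ± 0.11 and -0.34 ± 0.16. Both Ccr2 features, which mark monocytes, were listed at exact 0 on every array. Of 46 features of lymphocyte and mast cell markers 8 had 4 values, with medians of 0.12, -0.0091, -0.0053 and -0.05 and 0 of 8 positive on every array, and 9 of the 46 were at exact 0 throughout, Cd3d and Mcpt4 among them. Blood markers, 8 features with 4 values, were positive in the median at each time (0.13, 0.27, 0.03 and 0.16). So were the 7 features and the oligodendrocyte markers given below, a list that shares both Car2 features with the blood markers. Among the 8, 1 was called without the 1 h array, Car1, the red cell carbonic anhydrase, at 0.59, -2.81, -4.09 and -2.74 (limma adjusted p = 0.0061). Astrocyte markers had medians of -0.06, 0.05, 0.05 and 0.10, oligodendrocyte markers 0.0023, 0.04, 0.10 and 0.06, neuron and granule cell markers -0.11, 0.03, 0.0044 and -0.04, and vessel and choroid plexus markers -0.21, -0.12, 0.0083 and 0.11. In limma without the 1 h array 5 of 22 astrocyte features were called positive and 0 negative, beside 6.61% and 5.4% of the 7684. Gfap, the astrocyte filament protein, was among the 5 (-0.11, 0.41, 0.32 and 0.42, limma adjusted p = 0.0258). That fit called 3 of 20 oligodendrocyte and 1 of 20 neuron features positive, with 0 negative in either list. Of 18 vessel and choroid plexus features it called 1 positive and 3 negative, among the latter Ttr, the transthyretin of the choroid plexus (-0.20, -0.90, -0.60 and -0.70; adjusted p = 0.0120). The part of these cells in the ratios of Tyrobp, Fcer1g and Ctss was not tested.

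The features whose 4 ratios lay nearest to those of each gene were found by the root mean square difference over the 4 arrays, using the mean of a gene's features. For Tyrobp these were Sys1 (0.05), Macrod2 (0.08) and Gch1 (0.09), for Fcer1g Farsb, Timm22 and Elp2 (0.02 to 0.03), for Ctss Pdgfb, Psmc5 and Sat1 (0.01 to 0.03), and for Aif1 Mrpl34, Cmss1 and Ifi27 (all 0.02). None of these is a microglial marker of the lists. The features of Ctss differed from each other, as did those of Aif1, so each mean profile is a reading of neither feature. The 4 genes were not each other's nearest neighbours: from the Tyrobp profile, Ctss 13600 ranked 62, Fcer1g 211 and Ctss 11071 337, and the Aif1 features ranked 3302 and 3889. From the mean Ctss profile, Fcer1g ranked 60, the Tyrobp features 112 and 234, and the Aif1 features 3383 and 3526. With 4 points per profile and an array in common at each time, such nearness is a description alone.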

How the data were processed

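The authors deposited 1 table of log ratios for 4 two-colour arrays, read here as log2. How the arrays were scanned, background-corrected and normalised, and the base and direction of the ratio, are not given in the sources used here. Exact 0 was taken as no value, and each array was centred on its median (0.0052 to 0.017 as deposited). Features were named through the platform annotation: 13738 of 16281 had 1 symbol, 52 several and 2491 none. By Entrez identifier 13694 matched GRCm38.p6, and 0 symbols changed. limma 3.58.1 (R 4.3.3; lmFit, eBayes, Benjamini-Hochberg at 0.05) was fitted to 7684 features of 6661 genes with 1 symbol and 4 values, for the mean and the slope on log2 hours, and was tested on simulated data. Named genes were the 4 of largest absolute mean in each of the first 6 of 13 lists, a fixed set of microglial genes, and the 3 nearest profiles; others, such as Npc2's second feature, Fcgr3, Spi1 and Mrc1, were chosen after their values were seen. The members and lists were chosen with earlier results of these data known. The labels do not say that arrays came from separate animals, so p-values measure only the spread between these arrays. The number of arrays limits the precision.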

Additional observations from a re-analysis of the deposited data

How the results depend on the processing

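The ratios of the 7 features at each time were also read uncentred or with arrays brought to equal spread. Of these values 56 of 56 moved by less than the median difference between features of 1 gene. The settings shift an array by its small median or multiply it by a constant. Ratios of this size could not have moved further than that difference, so the count is no test of them. With equal spread both Tyrobp features read below 0.5 at 1 h (0.39 and 0.45). The means of the 7 features moved by less than 1 SD under the same settings, which is no test of them for the same reason. Leaving out 1 of 4 arrays can never move a mean by 1 SD, so the SD is no yardstick there. Without the 1 h array the mean of Ctss 11071 went from 0.13 to 0.05 and that of Aif1 1322 from -0.04 to -0.11. The count of features called for the mean, 0 with all 4 arrays, was 15 with values needed on at least 3 arrays and 2088 with array weights, and 0 to 923 on leaving out single arrays, 923 without 1 h. For the slope it was 0, and 0 to 1 on leaving out single arrays. It stayed 0 in both fits with uncentred values, exact 0 read as a value and gene means. Features at or above 0.5 numbered 1095, 303, 392 and 282 at 1, 2, 4 and 6 h, and at a threshold of 1 they numbered 208, 0, 11 and 12. Features at or below -0.5 numbered 773, 475, 531 and 430, and at -1 they numbered 50, 117, 204 and 151. With equal spread the counts at 1 h were 614 and 353, and 436 lay at or above 0.5 at 6 h. Over features with 4 values alone, which are fewer, 346, 116 and 168 lay at or above 0.5 at 1, 2 and 6 h and 212, 311 and 238 at or below -0.5 at 2, 4 and 6 h. No paired analysis was possible because each time has 1 array and the labels give no replicate numbers. Signal over background was not analysed here.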

Other observations

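Several features of genes near these pathways had very low ratios, most of them without a value at every time. Fcgr2b, the inhibitory IgG receptor, read -2.74, -3.48 and -2.77 at 2, 4 and 6 h in feature 15871, while its other feature read -0.46, 0.17 and -0.09. Car1, a blood marker with 4 values, read -2.81, -4.09 and -2.74 at the same times in feature 15631. Btk, a kinase of immune receptor signalling, read -2.19, -2.37 and -2.14 in feature 15825. Of the features at or below -1.5, 27 of 63 at 2 h, 29 of 178 at 4 h and 33 of 112 at 6 h had numbers from 15500 to 15999, a stretch that held 307 of 12227, 247 of 10185 and 273 of 10512 features with a value. No feature of Tyrobp, Fcer1g, Ctss or Aif1 lies in it. Ctsk, a cathepsin, read -2.41 and -2.92 at 4 and 6 h in feature 10605, while feature 17273 was positive on every array. Cst7, an inhibitor of cathepsins, read 0.22 at 1 h and -2.05 at 4 h in feature 9092. These genes were chosen after their values were seen, and the part of feature position was not tested.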
